A study of Caenorhabditis elegans with 2 samples.

Results

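A divergent promoter is the stretch between the starts of genes that run away from each other on opposite strands. Of 3641 thresholded XBP-1-GFP peaks, 766 (21.0%, Wilson 95% interval 19.7 to 22.4) had their summit in such a place. A peak counted as divergent when genes on both strands had an annotated protein-coding transcript start whose window, reaching 1000 bp upstream and 200 bp downstream, held the summit. Such peaks made up 32.0% (30.1 to 33.9) of the 2395 peaks in any promoter window, which themselves were 65.8% of the list. The main contrast was with 1577 peaks whose summit lay in the window of 1 gene alone, called one-gene peaks below. Another 52 peaks lay in windows of several genes on 1 strand, and 1246 lay outside all promoter windows.

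The peaks come from ChIP-seq on Caenorhabditis elegans, in which chromatin is sheared, a protein is pulled down with its DNA, and the DNA is sequenced. All animals were L1 hermaphrodites of strain OP506, genotype unc-119(tm4063) III; wgIs506, whose integrated transgene makes XBP-1 with GFP and FLAG at its C-terminus. They were taken 6 h after synchronization by bleaching and starvation at the L1 stage, and the description says that anti-GFP was used, although an antibody field names xbp-1. There were 2 biological replicates in 1 group. The labels do not state what drives the transgene, and a control pull-down was not used here, so no peak is set against a background measured in the same way. Each peak carries a signal value assigned by the authors' software, of unstated scale, which is used below only to rank peaks within a list. Whole animals were used, so strong binding in few cells and weak binding in many cells cannot be told apart.

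XBP-1 is a basic leucine zipper transcription factor of the unfolded protein response, the programme by which cells adjust the folding capacity of the endoplasmic reticulum (ER). Its mRNA is spliced by the ER sensor IRE-1 to give the active factor, and in vertebrates it binds elements that hold an ACGT core. The C. elegans genome is compact, so neighbouring genes often start close together and share the sequence between them. A peak there lies upstream of both genes, and its position alone does not tell which of them is regulated. Many nematode transcripts are also trans-spliced near their 5' end, so that an annotated start can lie downstream of the place where transcription begins.

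The sequences of a few divergent peaks show how varied their summits were. All are ce11 (WBcel235) RefSeq sequence on the plus strand, 101 bases centred on the summit, and lie between the facing starts. The first set holds the strongest members for which such a window was printed, at imp-2/enpl-1 (chrIV:11119181-11119281), Y22D7AL.10/hsp-60 (chrIII:1619089-1619189) and F55A11.1/syx-5 (chrV:11764519-11764619). Pairs are written with the minus-strand gene first. None of these windows holds TGACGTG, the core of the unfolded protein response element, and no base is in capitals.
imp-2/enpl-1: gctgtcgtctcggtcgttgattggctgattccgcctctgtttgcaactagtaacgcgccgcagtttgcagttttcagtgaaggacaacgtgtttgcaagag
Y22D7AL.10/hsp-60: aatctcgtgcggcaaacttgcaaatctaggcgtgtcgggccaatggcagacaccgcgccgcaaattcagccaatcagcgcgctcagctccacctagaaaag
F55A11.1/syx-5: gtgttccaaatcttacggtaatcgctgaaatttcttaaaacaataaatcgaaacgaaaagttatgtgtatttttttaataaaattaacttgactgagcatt

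The next set holds 3 of the strongest members with TGACGTG, which reads CACGTCA on the other strand: dnj-20/ZK1307.8 (chrII:9624254-9624354), pdi-1/C14B1.2 (chrIII:3701753-3701853) and aka-1/ubc-6 (chrII:7478861-7478961). Capitals mark that word, and in pdi-1/C14B1.2 also the E-box CACGTG. The window of aka-1/ubc-6 holds 2 copies of TGACGTG.
dnj-20/ZK1307.8: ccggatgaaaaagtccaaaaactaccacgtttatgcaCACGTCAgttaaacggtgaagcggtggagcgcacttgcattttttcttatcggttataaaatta
pdi-1/C14B1.2: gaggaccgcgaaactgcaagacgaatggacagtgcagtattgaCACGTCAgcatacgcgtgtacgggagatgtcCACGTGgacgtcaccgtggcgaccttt
aka-1/ubc-6: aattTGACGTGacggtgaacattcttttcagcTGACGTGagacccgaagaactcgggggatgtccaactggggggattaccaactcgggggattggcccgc

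Another set shows ribosomal protein promoters and a GA repeat, since the former were frequent among the strongest members and the latter differed between divergent and one-gene peaks. The windows are at rpl-20/Y17G9B.5 (chrIV:4750027-4750127), rpl-15/K11H12.8 (chrIV:654869-654969) and C17H12.2/vha-8 (chrIV:6790573-6790673). Capitals mark GAGAGAGA in the last of them, and the other windows hold no word that was searched as a marked motif.
rpl-20/Y17G9B.5: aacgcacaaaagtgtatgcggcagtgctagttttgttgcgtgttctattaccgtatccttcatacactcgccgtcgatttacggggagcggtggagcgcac
rpl-15/K11H12.8: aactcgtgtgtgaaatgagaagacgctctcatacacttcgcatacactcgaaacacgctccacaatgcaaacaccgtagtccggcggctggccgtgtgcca
C17H12.2/vha-8: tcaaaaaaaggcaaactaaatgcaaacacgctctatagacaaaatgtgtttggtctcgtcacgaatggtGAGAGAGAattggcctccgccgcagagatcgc

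The facing starts lay a median of 492.5 bp apart, with quartiles of 306.5 and 742 bp, within the limits of -400 and 2000 bp that the rule allows. Of the 766 summits, 727 (94.9%, interval 93.1 to 96.3) lay between the starts, 38 lay downstream of 1 of them and 1 lay on a start. Neither strand was favoured, since 378 summits were nearer to the minus-strand start and 388 to the plus-strand start. Along the way from the minus-strand start to the plus-strand start, the median position was 0.504 of the distance, with quartiles of 0.301 and 0.686. The pairs were mostly simple. In 726 cases the nearest starts belonged to directly neighbouring genes that did not overlap, 715 summits lay in the windows of exactly 2 genes, 50 in those of 3 and 1 in those of 4. That last summit lay in the windows of Y62E10A.20 on the minus strand and of Y62E10A.23, mdt-9 (a Mediator subunit gene) and lsm-3 on the plus strand.

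**Figure D1:**
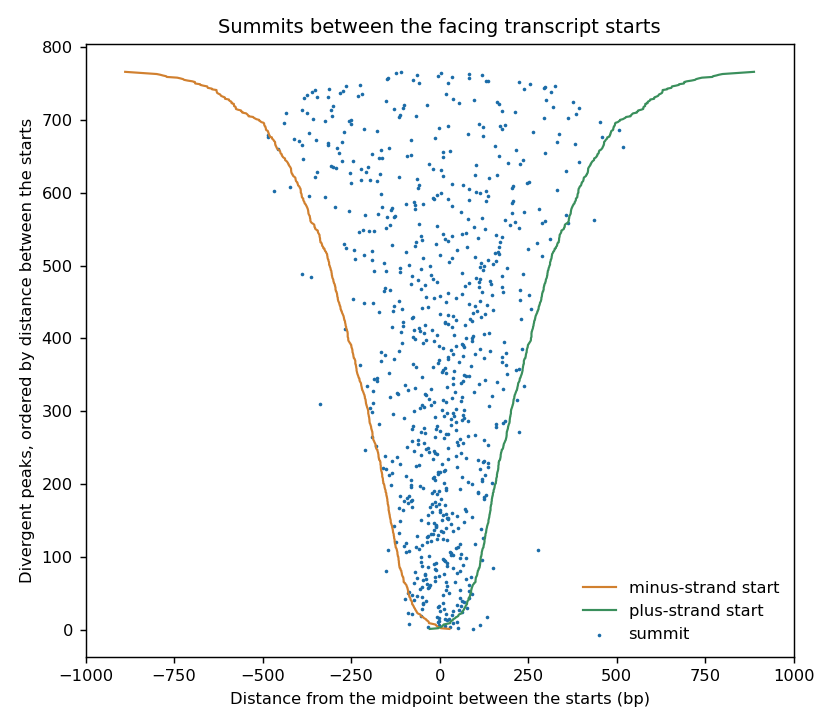
Each blue point is the summit of a divergent peak, placed by its distance in bp from the midpoint between the nearest facing starts (horizontal axis), with the 766 peaks stacked by the distance between the starts (vertical axis). The orange and green lines are the minus-strand and plus-strand starts, and 727 summits lie between them.

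The nearer start was a median of 145 bp away (quartiles 67 and 221) and the farther start 338.5 bp, against 241 bp (133 and 425) from one-gene summits to their start. The nearer of several starts is closer by construction, so this gap is no finding in itself. The distance also grows with the room between the starts, and the window bounds it in the widest class, so the values by class are a description only. Where the starts were up to 250 bp apart, the nearer start was 44 bp away in the median of 113 peaks. The same median was 117 bp for 275 peaks with starts 251 to 500 bp apart, 185 bp for 189 peaks at 501 to 750 bp, 242.5 bp for 116 peaks at 751 to 1000 bp and 401.5 bp for 70 peaks beyond that. The median rank by signal stayed between 1202 and 1432 in these 5 classes of distance, with no steady trend of strength over width.

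At the extremes, 3 members had starts that overlapped. They were Y50D4A.4/wrb-1, with the starts 55 bp past each other (-55 bp), F11C1.1/F11C1.7 (-7 bp) and rpb-7/Y54E10BR.2 (-3 bp), where rpb-7 encodes a subunit of RNA polymerase II. Signal values at rpb-7/Y54E10BR.2 were 550.3 pooled, 283.9 in replicate 1 and 261.9 in replicate 2, and those at F11C1.1/F11C1.7 were 73.4, 42.7 and 29.0. Widest apart were C49A1.10/clec-115 at 1776 bp, grk-1/F19C6.2 at 1727 bp and mif-4/ipla-6 at 1659 bp. The last stood at rank 128, with 397.6 in replicate 1 and 347.4 in replicate 2, and its summit lay 833 bp from mif-4 and 826 bp from ipla-6. The window limits also decide some members. Just inside lay C49A1.10/clec-115 (997 bp from the farther start), ugtp-1/sma-2 (996 bp) and the weaker of the peaks at zip-4/nol-58 (994 bp), and just outside lay T10E9.8/T10E9.2 (1001 bp), nstp-10/ehbp-1 (1002 bp) and ndua-5/elo-1 (1007 bp).

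Divergent peaks had higher signal values than one-gene peaks. Their median rank in the thresholded list was 1251 (quartiles 571.5 and 2190.8; 1 is the strongest), against 1835 (892 and 2709), and their median signal value was 204.9 against 146.3. In replicate 1 the medians were 105.2 and 76.5, and in replicate 2 they were 98.8 and 72.8. Of all couples made of a divergent and a one-gene peak, the divergent peak was the stronger in 60.8%, in 60.6% by replicate 1 and in 60.6% by replicate 2. The groups overlapped widely. The 52 peaks in windows of several genes on 1 strand were close to the divergent ones, with a median rank of 1286.5 (quartiles 468.2 and 2179.5) and a median signal of 199.5, so the higher signal is not called particular to divergent promoters. Divergent regions were also narrower, at a median of 280.5 bp against 376 bp, but 376 bp is the commonest width in the list and was held by 43.9% of divergent and 60.0% of one-gene peaks. Peaks of several genes on 1 strand had a median width of 285 bp, and 44.2% were 376 bp wide.

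The share of divergent peaks followed the strength of the peak. They were 31 of the 83 promoter peaks among ranks 1 to 100 (37.3%, interval 27.7 to 48.1), 42.8% among ranks 101 to 500, 40.1% among ranks 501 to 1000, 33.4% among ranks 1001 to 2000 and 23.8% (21.2 to 26.6) among the rest. Below the threshold, 611 of 7224 promoter regions of the pooled list were divergent (8.46%, 7.84 to 9.12), a difference of 23.5 percentage points (Newcombe 95% interval 21.6 to 25.5) from the thresholded list. Seen from the other side, 766 of 1377 divergent pooled regions were thresholded (55.6%), against 1577 of 8079 one-gene regions (19.5%) and 14.0% of all 26088 pooled regions. The thresholded list held exactly the 3641 strongest pooled regions, so these shares restate the difference in signal and are not a separate finding.

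**Figure D2:**
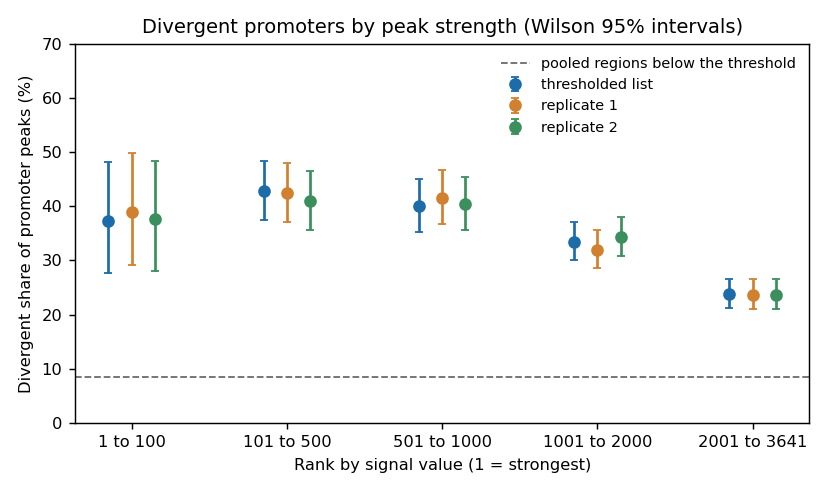
Share of promoter peaks that were divergent (vertical axis, percent) by rank of signal value (horizontal axis), for the thresholded list and for the strongest regions of replicate 1 and replicate 2, with Wilson 95% intervals. All 3 lists lie between 37.3% and 42.8% in the first 3 classes and at 23.7% or 23.8% among ranks 2001 to 3641, and the dashed line at 8.46% is the share among pooled regions below the threshold.

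Both replicates held every divergent peak. All 766 overlapped a region in each replicate's own list by at least 1 bp, as did 1575 of 1577 one-gene peaks. Those lists hold 30000 and 28535 regions, and 3640 of all 3641 thresholded peaks overlapped a region in each of them. Presence in both lists is therefore no trait of divergent peaks. Across these 766, the rank correlation of signal between the replicate lists (Spearman's rho) was 0.939, against 0.864 across 1575 one-gene peaks, and in each class the peaks share their libraries. The summit moved a median of 11 bp between replicates, and by at most 50 bp in 731 peaks (95.4%), against 14 bp and 86.2% for one-gene peaks. With replicate 1's summits 764 of the 766 stayed divergent, and with replicate 2's all 766 did. The authors' threshold used the same libraries, which limits what their likeness shows. Divergent and one-gene peaks also differ in signal and width, and the part of this in the contrasts was not tested.

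The 4 strongest members included 3 with a chaperone or disulfide isomerase gene. The peak of pdi-3/ubql-1 (I:7020789-7021982) was the second strongest of the whole list, with signal values of 27976.4 pooled, 14210.4 in replicate 1 and 13731.7 in replicate 2. pdi-3 encodes a protein disulfide isomerase of the ER and ubql-1 a ubiquilin, and the starts lie 1175 bp apart with the summit 643 bp from pdi-3 and 532 bp from ubql-1. Next came imp-2/enpl-1 (IV:11118773-11119591) at rank 5, with 10189.5 pooled, 5324.9 in replicate 1 and 4874.6 in replicate 2. enpl-1 encodes the Hsp90 chaperone of the ER and imp-2 an intramembrane protease, and the summit lay 67 bp from enpl-1 and 344 bp from imp-2. Y22D7AL.10/hsp-60 (III:1618922-1619388) held rank 8, with 3569.8 pooled, 1914.4 in replicate 1 and 1728.9 in replicate 2. This promoter joins the partners of the mitochondrial chaperonin, since hsp-60 encodes its large subunit and RefSeq names the product of Y22D7AL.10 as the co-chaperonin. The fourth, F55A11.1/syx-5 (V:11764345-11764870) at rank 10, had 3033.6 pooled, 1530.5 in replicate 1 and 1514.0 in replicate 2. syx-5 encodes a SNARE of ER-to-Golgi transport. Both replicates ranked these 4 members in the same order.

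The remaining 16 of the 20 strongest members lay between ranks 16 and 65 of the whole list, with pooled signal values from 1810.4 to 931.6. Ribosomal protein genes formed the largest group among them: rpl-20/Y17G9B.5, rpl-15/K11H12.8, rps-19/hsr-9, ifet-1/rps-1, rpl-12/lin-54, ska-3/rps-12 and rps-15/F36A2.9. At rpl-20/Y17G9B.5 the signal was 957.3 in replicate 1 and 878.8 in replicate 2, and at rps-15/F36A2.9 it was 474.5 and 453.3. Chaperones came next, with hsp-90, the cytosolic Hsp90, opposite C47E8.4 (782.3 and 734.4), the prefoldin subunit gene pfd-1 opposite F01G4.6 (508.1 and 465.3) and the J-domain protein gene dnj-28 opposite supr-1 (797.4 and 747.6). Some served the secretory pathway: aagr-3, which RefSeq names as glucosidase II alpha, opposite drap-1 (696.0 and 648.1), and cup-2, a derlin of ER-associated degradation, opposite tag-353 (659.6 and 616.1). K01G5.10/tasp-1, iff-2/F54C9.14 (iff-2 encodes the translation factor eIF5A), nhl-2/tag-340 and larp-1/wip-1 completed the 20. In all 20, replicate 1 gave the higher value; signal values are not normalised between the lists, so nothing is read from that.

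Some promoters were shared by a listed gene on each side. The share of such pairs among all head-to-head gaps was not counted, so their number is not called high or low. The 12 gene lists used below named both genes at 35 members (4.57%), 1 gene at 242 (31.6%) and neither at 489 (63.8%), with median ranks of 993, 1135 and 1342. Among the 35, both genes served the ribosome at rps-14/rpl-36 (rank 221; 300.3 in replicate 1 and 267.0 in replicate 2), rps-10/rpl-24.1 (rank 337; 258.7 and 201.5) and rpl-39/rps-30 (rank 643; 143.5 and 181.5). sec-61.B/trap-3 (rank 130; 346.1 and 381.4) joins a subunit of the Sec61 channel, through which proteins enter the ER, to a subunit of the complex attached to it. hsp-110/rpn-3 (rank 143; 371.5 and 329.7) joins a cytosolic Hsp70 cochaperone to a proteasome subunit, and rps-23/dpm-3 (rank 219; 299.9 and 276.4) a ribosomal protein to a subunit of dolichol-phosphate mannose synthase. sec-61.A/rps-18 (rank 270; 270.4 and 253.5) is an exception in its geometry, as the summit lay 130 bp downstream of the nearest sec-61.A start. The 6 histone pairs his-67/his-68 (rank 428), his-35/his-41, his-31/his-32, his-4/his-3, his-61/his-62 and his-60/his-59 (rank 2963) and the heat shock pair hsp-16.2/hsp-16.41 (rank 2503; 44.9 and 65.6) were also among the 35. Histone and hsp-16 genes have near-identical copies, so the placement of reads among them is uncertain. Others joined protein synthesis or turnover to another list: rpl-7A/set-21, eef-1B.1/aco-2, nars-1/nduf-6, rpl-28/mrpl-49, pas-4/rpb-3, fars-1/rbm-5, piga-1/eif-2Bepsilon, emc-6/mrps-24, pas-3/use-1, pbs-2/eif-6, rps-9/lsm-1, cpf-1/rpl-26, rpn-1/ribo-1, mrps-6/rpn-8, prp-9/mrps-18B, npp-25/mrps-10 and mrps-15/asg-1. ddx-15/ucr-1 joined an RNA helicase gene to a gene of the respiratory chain, and pdi-3/ubql-1, imp-2/enpl-1 and ifet-1/rps-1 complete the 35. The lists were matched by gene symbol and missed some genes, such as rpl-36.A, opposite the listed nuo-1, and ndua-2, opposite the listed dnj-29. Counts by list are therefore incomplete.

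Shared promoters held a summit more often than other gaps between genes. Of 2494 head-to-head gaps up to 2000 bp wide, 770 held a summit (30.9%, interval 29.1 to 32.7), against 601 of 7288 gaps between genes that follow each other on 1 strand (8.25%, 7.64 to 8.90) and 38 of 2161 gaps between genes that end toward each other (1.76%, 1.28 to 2.40). Over the 11943 gaps of all orientations the share was 11.8%. The gaps were taken between the outermost starts or ends of neighbouring genes, so 770 need not equal the number of divergent peaks. Among head-to-head gaps, those of 251 to 500 bp held a summit most often (48.1%, against 12.7% in tandem and 2.05% tail to tail, a difference of 35.5 points from tandem with an interval of 30.9 to 40.0). Gaps of 1001 to 2000 bp held one in 21.5%, 9.62% and 2.96% of cases. Replicate 1's strongest regions gave 29.8%, 8.14% and 1.99% over all widths, and replicate 2's gave 30.2%, 7.90% and 1.67%.

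**Figure D3:**
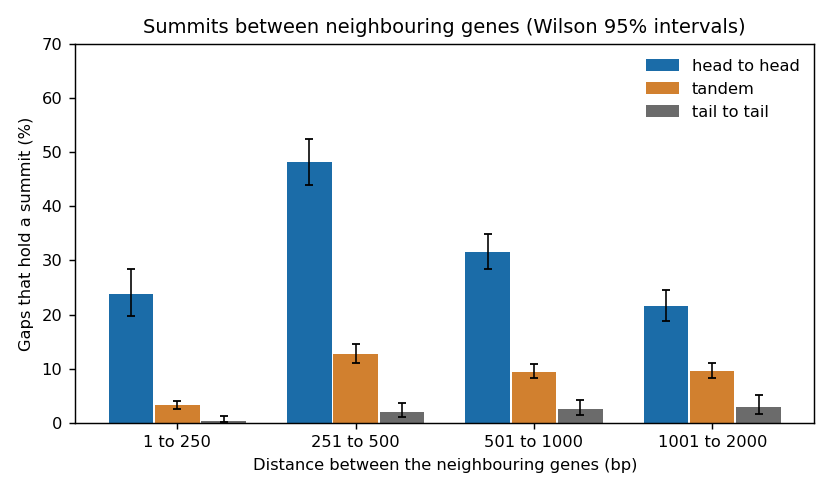
Share of gaps between neighbouring protein-coding genes that hold a thresholded summit (vertical axis, percent), by width of the gap (horizontal axis, bp) and orientation of the genes, with Wilson 95% intervals. Head-to-head gaps stand above tandem gaps in each width class, and highest at 251 to 500 bp (48.1%).

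A head-to-head gap borders 2 starts and a tandem gap 1, so the excess was also counted per start. There were 11.9 summits per 100 starts in head-to-head gaps up to 250 bp against 3.23 in tandem gaps. The counts were 24.5 summits per 100 starts in head-to-head gaps of 251 to 500 bp against 12.8 in tandem gaps, and 12.6 against 10.6 in gaps of 1001 to 2000 bp. Per start, the difference was thus smaller in wide gaps than in narrow ones. The 2166 tandem gaps up to 250 bp had a median width of 110 bp. Whether the starts beside such short gaps have promoters of their own was not checked. Measured by sequence, divergent windows covered 2.34 Mb, or 8.93% of promoter windows, and held 32.0% of promoter peaks. That is 327.4 peaks per Mb against 68.3 in windows of genes on 1 strand (ratio 4.80). Bases of divergent windows lie near starts on both strands, and one-gene summits also lay near their start (quartiles 133 and 425 bp). How much of the ratio comes from this nearness was not tested. Among autosomes the ratio ran from 4.54 on chromosome II to 5.40 on chromosome V. On the X chromosome divergent windows were scarcer (3.31% of promoter windows), divergent peaks made up 35 of 352 promoter peaks (9.94%), and the ratio of densities was 3.22. Even among one-gene peaks, 466 of 1577 (29.5%) lay in a head-to-head gap, too far from the second start for the rule.

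Some shared promoters held more than 1 summit. In 43 of the 770 gaps there were at least 2, in 2 of them 3, and the outermost summits of a gap lay up to 1774 bp apart. The smallest distance between neighbouring summits anywhere in the thresholded list was 199 bp. In 14 of the 43 gaps the outermost summits lay at most 250 bp apart, close to that smallest distance, and in 24 they lay more than 500 bp apart. Whether close summits are separate binding sites was not tested. The gap of hsp-3/C15H9.5, 1176 bp wide on the X chromosome, held the top peak of the whole list, 49 bp from the start of hsp-3, an ER Hsp70 (BiP) gene, with a signal of 34888.2. That summit was beyond the window of C15H9.5 and so is no member, but a second summit 964 bp from hsp-3 and 212 bp from C15H9.5 was one, at rank 855 with 265.5. The region of this second summit (X:6091571-6093333) is 1763 bp wide and also spans the top summit. It is therefore not a separate stretch of binding at C15H9.5. F55A11.1/syx-5 held summits 214 bp apart at ranks 10 and 3311, and ntl-11/Y73F8A.27 held summits 973 bp apart at ranks 82 and 182, the more even pair. At spo-11/swsn-4 they lay 202 bp apart with signals of 696.3 and 159.3.

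Many genes with a promoter peak had it through a divergent one. Of 19973 protein-coding genes, 3092 (15.5%) had a promoter peak, and 1535 of these (49.6%, or 7.69% of all genes) had it through a divergent peak, 1506 of them through nothing else. A peak was counted for each gene whose window held it. Genes in a head-to-head gap of at most 1000 bp had a promoter peak in 1320 of 3436 cases (38.4%, interval 36.8 to 40.1), and other genes in 1772 of 16537 (10.7%, 10.3 to 11.2), a difference of 27.7 points (26.0 to 29.4). For such genes the window of 1 partner catches peaks that lie closer to the other, so part of this difference is built in. The other genes include those that closely follow a neighbour on the same strand, and whether these have promoters of their own was not checked.

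Secretory pathway genes differed in how their peaks were spread over the arrangements. Over all protein-coding genes the shares were 38.4% head to head and 10.7% otherwise, a difference of 27.7 points (26.0 to 29.4). A list whose difference lies near that value shows no trait of its own. As said above, 1 peak can count for both partners, such as sec-61.B and trap-3. In the list of ER entry and glycosylation (signal recognition, translocon, signal peptidase and sugar transfer), 21 of 22 head-to-head genes had a promoter peak against 9 of 36 others, a difference of 70.5 points (interval 46.9 to 82.3). pigu-1 was the head-to-head gene without one. Besides imp-2, its strongest members were at spcs-2, a signal peptidase subunit gene opposite mrg-1 (rank 113; 428.4 in replicate 1 and 350.2 in replicate 2), sec-61.B/trap-3, and dad-1, an oligosaccharyl transferase subunit gene opposite tre-1 (rank 156; 346.4 and 316.0). In the list of ER folding and stress, 6 of 6 head-to-head genes and 17 of 27 others had a peak. pdi-3, enpl-1, dnj-20 (a J-domain protein gene of the ER, opposite ZK1307.8; 452.8 and 430.6) and pdi-1 (opposite C14B1.2; 443.3 and 411.1) led its 8 members. The difference of 37.0 points had an interval from -4.96 to 55.8 and so was not resolved at these numbers.

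Genes of ER-to-Golgi traffic had peaks at 14 of 18 head-to-head genes and at 23 of 41 others (21.7 points, -5.25 to 41.7). syx-5 led, followed by sly-1, whose yeast counterpart acts with that of syx-5, opposite sip-1 (rank 146; 356.1 and 334.3), the coatomer gene copz-1 opposite cyn-4 (rank 350; 210.8 and 230.4) and nsf-1, whose product takes SNARE complexes apart, opposite adr-1 (rank 413; 216.1 and 197.3). erd-2.2, sec-24.2, trpp-5 and trpp-6 were the head-to-head genes of this list without a peak. For ER-associated degradation the counts were 4 of 7 and 12 of 22 (2.60 points, -34.5 to 36.2), and its strongest members were ubql-1, cup-2 and the ubiquitin-conjugating enzyme gene ubc-6, opposite aka-1, which held summits at ranks 706 and 1336.

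**Figure D4:**
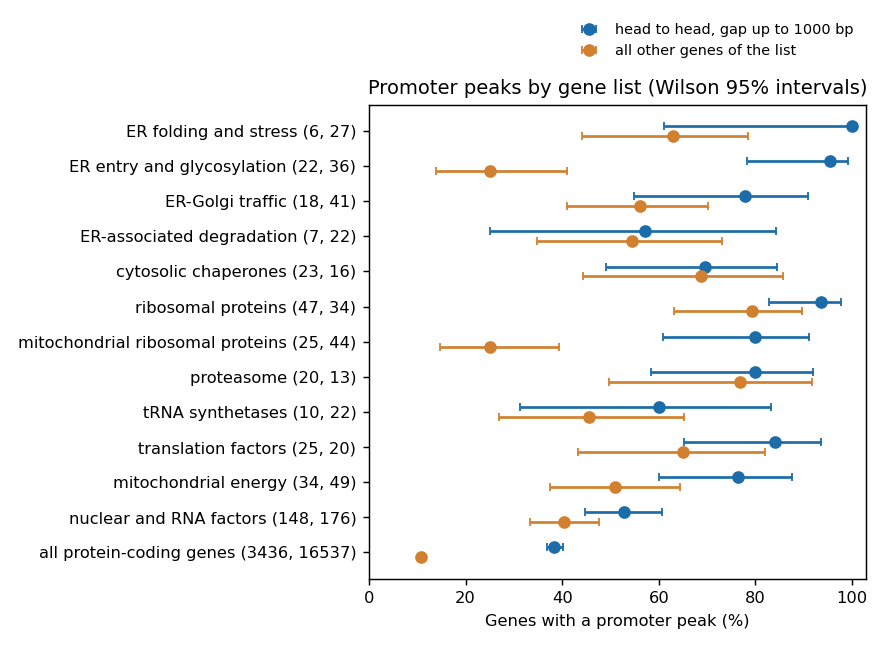
Share of the genes of each list that had a promoter peak (horizontal axis, percent), for genes in a head-to-head gap of at most 1000 bp and for all other genes of the list, with Wilson 95% intervals and, in brackets, the number of genes of each kind. The points lie farthest apart for ER entry and glycosylation (95.5% and 25%) and mitochondrial ribosomal proteins (80% and 25%), and close together for cytosolic chaperones and the proteasome.

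The ribosomal lists differed from each other. Among cytosolic ribosomal protein genes, 44 of 47 head-to-head genes and 27 of 34 others had a promoter peak (14.2 points, -0.662 to 30.9), and rla-2, rpl-11.1 and rps-27 were the head-to-head genes without one. Among mitochondrial ribosomal protein genes the counts were 20 of 25 and 11 of 44 (55.0 points, 31.0 to 70.3). The strongest mitochondrial ones were mrps-7 opposite Y57G11C.3 (rank 227; 314.1 and 276.1), mrpl-49 opposite rpl-28 (rank 401; 228.2 and 193.1), mrpl-45 opposite Y119D3B.12 (rank 556; 144.1 and 188.7) and mrpl-12 opposite Y39A1A.22 (rank 625; 177.8 and 139.5). The 42 members with a cytosolic ribosomal protein gene had a median rank of 559.5, and the 21 with a mitochondrial one had 1158, beside 1251 for all divergent peaks.

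Quality control genes of the cytosol had peaks at most members of either arrangement. Cytosolic chaperone genes had one in 16 of 23 head-to-head cases and 11 of 16 others (0.815 points, -25.8 to 29.3), and proteasome genes in 16 of 20 and 10 of 13 (3.08 points, -23.2 to 32.8). These intervals are wide, so they do not show that arrangement made no difference. The 7 head-to-head chaperone genes without a peak were cct-4, cdc-37, chn-1 and copies of hsp-16.1 and hsp-16.48. At the hsp-16 copies the placement of reads is uncertain, so a missing peak there says little. The chaperonin subunit genes cct-1, opposite mig-5 (rank 72; 492.6 and 439.6), and cct-8, opposite Y55F3AR.2 (rank 102; 430.0 and 367.5), followed hsp-90 and pfd-1. The proteasome genes were led by rpn-3, rpt-2 opposite aps-1 (rank 265; 268.9 and 246.5), pas-4 opposite rpb-3 (rank 435; 195.7 and 196.3) and pbs-1 opposite K08D12.3 (rank 652; 145.6 and 164.7).

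Of the 4 further lists, mitochondrial energy and import genes had a peak in 26 of 34 head-to-head and 25 of 49 other cases (25.5 points, 4.22 to 43.0). hsp-60 led, before atp-1, an ATP synthase subunit gene opposite mcrs-1 (rank 151, 347.1 and 321.4), tim-1 opposite Y75B8A.23 (rank 157, 340.2 and 320.6) and cox-6B opposite Y71H2AM.20 (rank 170, 340.6 and 309.2). The list took tim-1 by its symbol alone. A mitochondrial role of its product was not checked, so these counts may include a gene of another kind. Nuclear and RNA factors had one in 78 of 148 and 71 of 176 (12.4 points, 1.47 to 22.9), and 1 peak often lay in the windows of several of its histone genes. Many of the 70 head-to-head genes of this list without a peak were histone genes, where the placement of reads is uncertain. The strongest members of the list were at set-16, opposite drr-2 (rank 69, 475.0 and 476.4), set-21, mdt-26 and swsn-4. Translation factors had 21 of 25 and 13 of 20 (19.0 points, -6.16 to 42.7), with iff-2, ifet-1, eef-1A.1 and eef-2 the strongest. tRNA synthetases had 6 of 10 and 10 of 22 (14.5 points, -20.4 to 44.2) and the weakest members of any list, with a median rank of 2178.5. ears-2, nars-1, mars-1 and fars-1 led them.

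The core of the unfolded protein response element was not detectably more frequent at divergent summits than at one-gene summits. TGACGTG, searched on both strands within 50 bp of the summit, was in 22 of 766 divergent windows (2.87%, interval 1.90 to 4.31) and in 62 of 1577 one-gene windows (3.93%, 3.08 to 5.01), a difference of -1.06 points (-2.51 to 0.612), beside 3.43% of all 3641 summit windows. Windows of the same length centred 150 bp upstream of the outermost start of each gene held it in 0.971%, and the middle of head-to-head gaps without a summit in 0.596%. Among ranks 1 to 500 it was in 5 of 165 divergent windows (3.03%) and 16 of 217 one-gene windows (7.37%), with an interval of the difference from -8.95 to 0.422 points. The 22 members were of several kinds. Next to supr-1/dnj-28, dnj-20/ZK1307.8, pdi-1/C14B1.2, nsf-1/adr-1 and aka-1/ubc-6 they included prpf-4/ekl-1, prmt-1/cdkr-3 and eelo-1/Y67D2.2, all among the strongest 8. The word read along the strand of the nearer gene in 12 of the 22 and against it in 10.

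The E-box, the ACGT core and the GA repeat were scarcer at divergent than at one-gene summits. The E-box CACGTG was in 3.13% of divergent and 5.52% of one-gene windows (-2.38 points, -3.99 to -0.579; 5.47% of all summit windows), and the 4-base core ACGT, which TGACGTG, the E-box and the CRE all contain, in 24.5% and 31.3% (-6.78 points, -10.5 to -2.90; 30.1% of all). The CRE, TGACGTCA, was in 1.57% and 1.59% (-0.0187 points, -1.02 to 1.24; 1.68% of all). GAGAGAGA was in 2.87% of divergent and 6.34% of one-gene windows (-3.47 points, -5.10 to -1.66; 6.62% of all); F54D5.9/dnj-13 at rank 134 and C17H12.2/vha-8 at rank 277 (vha-8 encodes a subunit of the vacuolar ATPase) held it. TATAAA was in 4.57% of either class and 4.56% of all summits, against 13.4% upstream of all genes and 14.4% in gaps without a summit. Base composition moved with these counts: the median G+C was 46.5% at divergent and 47.5% at one-gene summits, 33.7% upstream of all genes and 32.7% in the empty gaps. On autosomes alone the median G+C was 46.5% at divergent and at one-gene summits. On the X chromosome, which held 35 divergent and 316 one-gene peaks, it was 51.5% and 50.5%. The part of base composition and of the X chromosome in the differences was not tested. Within ranks 1 to 500 the intervals of all 6 differences included 0.

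**Figure D5:**
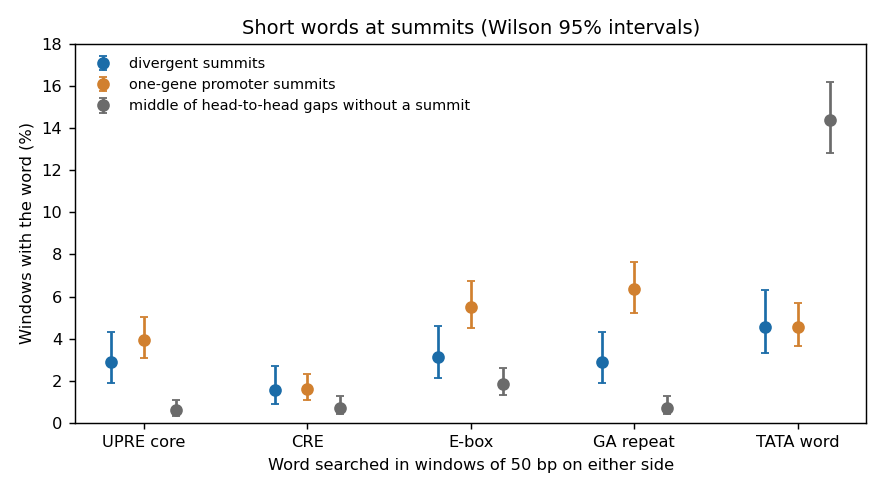
Share of windows of 50 bp on either side that hold each short word on either strand (vertical axis, percent; horizontal axis, the words named as the unfolded protein response element core UPRE, the CRE, the E-box, the GA repeat and the TATA word), with Wilson 95% intervals. Divergent summits lie below one-gene summits for the E-box (3.13% and 5.52%) and the GA repeat (2.87% and 6.34%), and both lie below the gaps without a summit for the TATA word.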

How the data were processed

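XBP-1-GFP ChIP-seq peak lists from 2 biological replicates of 1 group were analysed. The labels call them biological replicates; every interval covers counting over peaks, genes or windows only, since peaks are not replicates. Which aligner and peak caller were used is not given in the sources used here. According to the deposited file lists, the relaxed regions were derived from the alignments and 1 further file not used here, and the thresholded list came from them by the irreproducible discovery rate. The signal of each region and its summit offset are deposited values of the authors, of unstated normalization; without read totals the depth is unknown.

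Regions were read on ce11, the same assembly as WBcel235. Starts and gene symbols came from the protein-coding transcripts of Ensembl release 115 and sequence from RefSeq; some RefSeq symbols differ. Summits were matched to starts with Python 3.11.15, numpy 2.4.6 and pandas 2.3.3. Replicate values are those of the overlapping region with the nearest summit, so 2 peaks can share 1 region. Shares carry Wilson and differences Newcombe 95% intervals, with no p-value. Tested on simulated data, 500 of 500 summits planted in head-to-head gaps up to 1000 bp wide were classed as divergent with the right genes. That check used outermost starts only. In such gaps the window makes every summit divergent, so the check covers the running of the code alone. Wider gaps and the choice among several starts of a gene were not tested in this way. Members, 12 gene lists and 6 words were chosen with earlier results of these data known. The text names the 20 strongest members, up to 4 per list, the members with a listed gene on both strands, the extremes of distance, the window limits and gaps with several summits; genes without a peak, members holding a word and the summit in the windows of 4 genes fall outside this rule and were named after their values were seen. Alternatives changed the window, starts, threshold, replicate, pair rule and word window.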

Additional observations from a re-analysis of the deposited data

How the results depend on the processing

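Of 90 alternatives to 10 results, 40 moved: medians by more than the spread between the replicates' own lists, which was very small, and shares beyond their Wilson interval. The count of divergent peaks was held to a limit of 1.5 times, and against 766 it was 557 with the narrow window, 1043 with the wide one, 596 with innermost starts, 725 with outermost starts, 512 in the stronger part of the list, 726 for neighbouring pairs, 731 on autosomes alone and 758 to 759 without a replicate, each within that limit. No alternative reversed the order of the median ranks. The divergent share of promoter peaks was 27.5% with windows of 500 and 100 bp, 37.4% with 2000 bp upstream, 29.0% with innermost starts, 38.6% in the stronger part of the list (1820 peaks) and 35.8% on autosomes alone, an alternative chosen after seeing the data. In the same order, the distance between starts was 390, 650, 553, 488.5 and 492 bp; it was 486 bp with outermost starts, 488.5 bp for neighbouring pairs and 492 to 492 bp when leaving out a replicate. The distance to the nearer start was 125, 159 and 160 bp with the narrow window, wide window and innermost starts, 143 bp with outermost starts, 144.5 bp for neighbouring pairs and 139.5 to 140 bp without a replicate. Median ranks of divergent and one-gene peaks were 1217 and 1679.5, 1315 and 1990, 1236 and 1750.5, and 778 and 880 in the first 4 settings and 1230 and 1747.5 with outermost starts; for divergent peaks they were 1244 for neighbouring pairs and 1246 on autosomes, and for one-gene peaks 1786 to 1807 without a replicate. With innermost starts, 97.7% of summits lay between the starts. Head-to-head gaps held a summit in 20.8% with the stronger peaks and 35.1% up to 1000 bp. TGACGTG at one-gene summits was 2.16% within 25 bp and 5.20% within 100 bp. No paired analysis was possible because there is 1 group. Unknown depth limits any statement about peaks that are missing.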

Other observations

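A word outside the 6 searched recurred in the printed windows. GTGGAGCGC, on either strand, was seen in those of dnj-20/ZK1307.8 and rpl-20/Y17G9B.5 and was then counted, so its frequency at divergent summits was chosen after reading them. It lay within 50 bp of 30 of 766 divergent summits (3.92%, Wilson 95% interval 2.76 to 5.54), 33 of 1577 one-gene summits (2.09%, 1.49 to 2.92) and 5 of 1246 summits outside promoter windows (0.401%, 0.172 to 0.936). Windows centred 150 bp upstream of all genes held it in 0.180%, and the middle of head-to-head gaps without a summit in 0.119%. Among ranks 1 to 500 it was in 10 of 165 divergent windows (6.06%, 3.32 to 10.8) and 3 of 217 one-gene windows (1.38%, 0.471 to 3.99). The 10 include the windows in which the word was first seen, so this contrast is no independent finding. Among ranks 501 to 2000 the shares were 4.28% and 2.63%, and among the rest they were 1.76% and 1.82%. The strongest members with it were rpl-20/Y17G9B.5 (957.3 in replicate 1 and 878.8 in replicate 2), rpl-12/lin-54 (599.2 and 549.6) and rps-15/F36A2.9 (474.5 and 453.3). The part of base composition in these shares was not tested.

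Annotated starts at peaks often followed an AG, the last bases of a splice acceptor. This held for 47.5% of the 1489 nearest starts of divergent peaks (interval 45.0 to 50.1), 45.6% of those of one-gene peaks and 27.6% of the outermost starts of all genes. TTTCAG came before 24.6%, 22.6% and 12.3% of them. The peak classes use the start nearest to the summit among all annotated starts, and the values for all genes use the outermost start alone. The part of this unlike choice in the difference was not tested. Divergent promoters with 0, 1 and 2 starts after an AG had median distances between the starts of 407, 479 and 529 bp and median distances from the summit to the nearer start of 101, 145 and 182.5 bp.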
